A study of Mus musculus with 4 samples.

Results

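The 10 genes described here are those of the machinery that carries a cell through the G1 phase: the D-type cyclins Ccnd1, Ccnd2 and Ccnd3, the E-type cyclins Ccne1 and Ccne2, the cyclin-dependent kinases Cdk4 and Cdk6, and the CDK inhibitors Cdkn1b, Cdkn2c and Cdkn2d. They were taken by gene symbol from the 21506 genes of the deposited tables, a choice made with earlier results of these data known. All 10 were present, with 14 of the 26982 transcript rows. The row with the longest exon length stood for each gene. RNA sequencing had been done on 4 libraries of 32Dclone3, a mouse myeloid line grown with fetal bovine serum and IL3 from WEHI medium. In the control group (2 libraries) the cells had been stably infected with the XZ control virus, and in the miR-125b group (2 libraries) with XZ-miR-125b, the same vector carrying that miRNA. Per the labels' protocols each condition was infected 2 times, each time with another virus supernatant, and both conditions used 1 cell line. Which library came from which infection is not stated. Both groups are thus virus-infected, IL3-supplied cells, and no untransduced library was analysed here. The question was which mRNA levels differ between vector and miR-125b cells.

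D-type cyclins are made in response to growth factors and bind CDK4 or CDK6, and these complexes start the phosphorylation of the retinoblastoma protein. E2F factors are then released and induce the E-type cyclins, which act with CDK2 to bring the cell into S phase. The Ink4 inhibitors (Cdkn2 genes) block CDK4 and CDK6, whereas the Cip/Kip inhibitors (Cdkn1 genes) bind cyclin-CDK complexes, above all those of CDK2. In cytokine-dependent myeloid cells, cyclin D2 and cyclin D3 with CDK4 and CDK6 are the usual G1 complexes, and p27Kip1 builds up when growth factor is withdrawn.

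Before the levels, the sequences show how these genes relate to the miRNA that was introduced. A miRNA recognises mRNAs mainly through its seed, bases 2 to 8, and a 7mer-m8 site (CTCAGGG for miR-125b) or an 8mer (CTCAGGGA) pairs with all of it. Weaker classes are the 7mer-A1 (TCAGGGA) and the 6mer (TCAGGG). For each gene the longest 3′ UTR of its protein-coding transcripts in GENCODE M21 was searched (GRCm38, used for names and sequence only), and none of the 10 genes held an 8mer or a 7mer-m8. Among the 9938 tested genes with a 3′ UTR, 15.6% held at least 1 of these. Cdkn2d held a 7mer-A1, Ccnd1 and Ccne2 held 1 6mer each, and Ccnd2 and Cdk6 held 2 each. Ccnd3, Ccne1, Cdk4, Cdkn1b and Cdkn2c held no match to the 6 letters. The mature miRNA (RefSeq, GRCm38.p6) is shown with its seed in capitals, and the matches in the 3′ UTRs (GENCODE M21 transcripts, sense strand) with the paired letters, and the A of the 7mer-A1, in capitals.
miR-125b-5p: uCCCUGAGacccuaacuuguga
Cdkn2d, 7mer-A1 at base 17 of 907: ggatctctggttattTCAGGGAcat
Ccnd1, 6mer at base 2140 of 2676: catagcatcacagcagTCAGGGcac
Ccnd2, 6mer at base 1318 of 5173: atgcacaggctgaacaTCAGGGtgt
Ccnd2, 6mer at base 2694 of 5173: gtagcattgaatggctTCAGGGttt
Ccne2, 6mer at base 1442 of 1681: cagctgtaatacttctTCAGGGttg
Cdk6, 6mer at base 7232 of 10217: gtagggctttggttttTCAGGGgac
Cdk6, 6mer at base 9253 of 10217: tttcacggtgcagacaTCAGGGtac
In each match the base before the capitals is not C, the letter that a 7mer-m8 would need. The Cdk6 row of the tables counted 2470 bases of exon in all, fewer than lie between the stop codon and either 6mer.

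The libraries held between 10.4 and 12.6 M reads over all rows. Rows of the same gene can count the same reads, and with 1 row per gene the sums were between 7.73 and 9.48 M. Values are RPKM, the reads per kilobase of exon for each M reads of the library, and 3 reads on a 1 kb transcript were worth 0.238 to 0.289 RPKM. The hairpin row of Mir125b-1 held 0 reads in both control libraries and 4 in each miR-125b library. Control replicate 2 stood apart from the other libraries (first principal component, 57.8% of variance). Across genes, the difference between the controls went with the GC content of the transcript (Spearman's rho 0.476, against 0.0514 between the miR-125b libraries). Myeloid genes were abundant, with Ctsg between 375.1 and 673.7 RPKM and Prtn3 between 319.2 and 758.5 RPKM, but the progenitor marker Kit was at 0 or 1 read in every library. Of the 12 myeloid markers 9 were tested, and at an unadjusted p under 0.05 in limma's test 1 was higher in miR-125b cells (4.17% of all tested genes were) and 2 were lower (5.21%), with 0 called. These were named after their values were seen. Mpo, the granule enzyme myeloperoxidase, stood at 39.1 and 54.2 RPKM in control against 273.0 and 105.3 RPKM in miR-125b libraries. Csf2rb, the shared beta chain of the IL3 receptor, stood at 69.3 and 59.9 RPKM in control against 33.8 and 50.1 RPKM in miR-125b libraries. Its close copy Csf2rb2, with which reads may be shared, stood at 35.3 and 29.3 RPKM in control against 13.4 and 22.7 RPKM in miR-125b libraries. In all 3 the groups do not overlap, as in 42.8% of all tested genes. Over the 5 lymphoid markers the summed level was between 0.145 and 0.421 RPKM, and Col1a2, Col3a1 and Dcn of the 6 stromal markers had no read, while Pdgfrb was between 2.46 and 8.53 RPKM. Summed stromal levels were 5.22 and 9.49 RPKM in control against 9.94 and 4.89 RPKM in miR-125b libraries, and overlapped. Thy1, on the same list, stood at 0.257 and 0.722 RPKM in control against 1.19 and 2.31 RPKM in miR-125b libraries, and was the 1 of 2 tested stromal markers with an unadjusted p under 0.05. It passed the filter on low values through the miR-125b libraries alone. The part of the myeloid and stromal markers in the results was not tested.

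For none of the 10 G1 genes did the difference between miR-125b and control cells pass the test against the spread between libraries. In limma's moderated linear model on log2(RPKM + 1) over all 10310 genes with at least 1 RPKM in at least 2 libraries, 9 of the 10 were tested and 0 were called at an adjusted p of 0.05, against 0 of all tested genes (0.0%). At an unadjusted p under 0.05 there were also 0 of 9, where 9.38% of all tested genes passed (967 genes), and limma-voom on the recovered reads gave 0 of 9 on both counts. Adjusted p-values of the 9 ran from 0.607 to 1.00. Of the 9 log2 fold changes, 6 were above 0 and 3 below, with a median of 0.029 beside 0.024 over all tested genes. The groups did not overlap for 1 of the 9, Ccnd3, beside 42.8% of all tested genes. The median size of the 9 differences regardless of sign was 0.13, beside 0.20 over all tested genes. With 2 libraries per group the 95% intervals were wide, and the narrowest, that of Ccnd2, still reached from 0.726-fold to 1.35-fold. In bulk RNA, a smaller share of cells in a phase and less RNA per cell cannot be told apart.

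**Figure D1:**
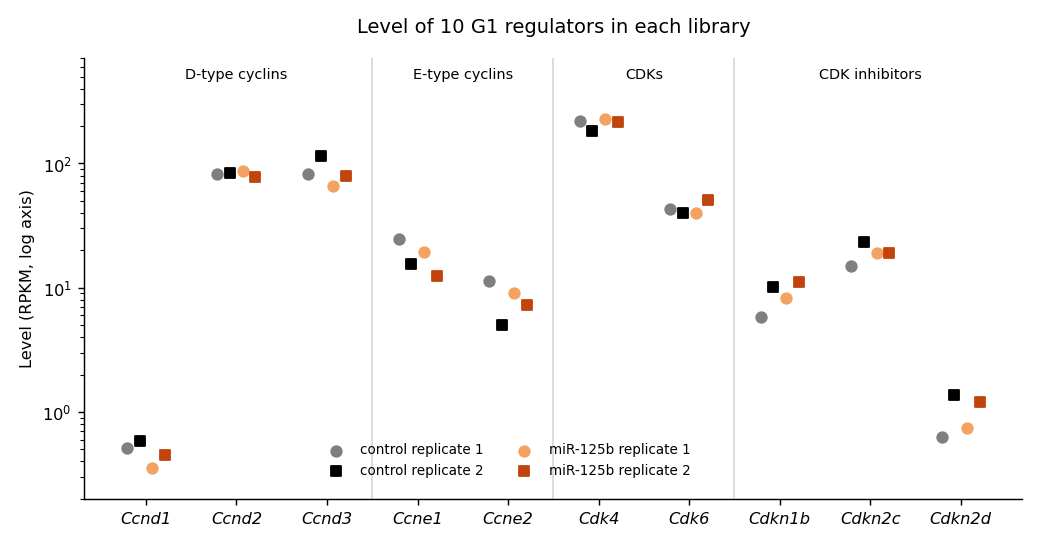
Level of each G1 gene in each of the 4 libraries, in RPKM on a log axis, with 1 point per library (grey and black for control replicates 1 and 2, light and dark orange for miR-125b replicates 1 and 2). Cdk4 is the highest in all libraries and Ccnd1 the lowest, and the groups overlap for every gene but Ccnd1 and Ccnd3.

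By level per exon length, Cdk4 came first, at a mean of 209.9 RPKM over the 4 libraries, and 0.688% of all 21506 genes stood at or above it. Ccnd3 (85.0 RPKM) and Ccnd2 (82.9 RPKM) followed, and their order was not settled, each being the higher in 2 of 4 libraries. Cdk6 was next, with a mean level of 43.5 RPKM. Cdkn2c (19.1 RPKM) and Ccne1 (18.0 RPKM) overlapped, as did Cdkn1b (8.84 RPKM) and Ccne2 (8.19 RPKM). Cdkn2d (0.988 RPKM) and Ccnd1 (0.476 RPKM) were low, with 9 to 23 reads per library. The other steps in this order were the same in all 4 libraries, and the libraries of the neighbouring genes did not overlap. Within this group, the transcripts of cyclins D2 and D3 and of CDK4 thus stood at the top. Those of the inhibitors Cdkn1b, Cdkn2c and Cdkn2d were at lower levels in every library. This does not hold for Cdkn1a, an inhibitor outside the group, which had a mean of 220.2 RPKM and is described below.

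Among the D-type cyclins, Ccnd2 had the smallest standard error of the 9 tested genes. This gene (chromosome 6, 127075727 to 127101066 in mm9, minus strand, 5 exons) encodes cyclin D2. It stood at 82.6 and 83.8 RPKM in control against 86.8 and 78.3 RPKM in miR-125b libraries. The control values lie between those of the miR-125b group. The log2 fold change, miR-125b minus control, was -0.014 ± 0.19 (SE, n = 2 libraries per group; limma adjusted p = 0.979).

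Ccnd3 had the smallest p of the 9 tested genes. It encodes cyclin D3 (chromosome 17, 47642000 to 47736637, plus strand, 7 exons in the longest of 3 rows). Its level was 81.6 and 114.0 RPKM in control against 65.3 and 79.1 RPKM in miR-125b libraries. Both miR-125b libraries were below both controls, by a small margin on one side, and control replicate 2 was high. Groups that do not overlap with miR-125b lower were found in 20.4% of all tested genes. Cyclin D3 mRNA had a log2 fold change of -0.42 ± 0.24 (SE; limma adjusted p = 0.607), an interval from 0.504-fold to 1.11-fold. It was -0.18 without control replicate 2 and -0.66 without control replicate 1. The transcript has 58.4% GC, where the median tested gene has 50.4%, and after a correction for GC content the difference was -0.31.

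Of the 3 Ccnd3 rows, both long ones share their start and end and differ by 45 bases of exon 3, and the short one starts elsewhere. The short row, which starts inside the gene at its own first exon, stood at 94.0 and 137.1 RPKM in control against 74.2 and 90.0 RPKM in miR-125b libraries. It held more reads than the longest row in all libraries, by 148 and 310 reads in control and by 108 and 122 reads in miR-125b libraries. If reads were counted exon by exon, these are the reads of its own stretch of 142 bases less those of the 2 upstream exons of the long form, which span 281 bases. For the short row, too, both miR-125b libraries were below both controls. It shares its later exons with the long rows and can count the same reads there, so this is not a separate observation. How reads across splice junctions were counted is not stated in the labels or file headers.

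Ccnd1, which encodes cyclin D1 (chromosome 7, 152115836 to 152125830, minus strand, 5 exons), was close to silent. It had 22 and 23 reads in control and 17 and 20 in miR-125b libraries, or 0.516, 0.584, 0.355 and 0.449 RPKM. The miR-125b values are the lower ones, but the exact 95% Poisson intervals of all 4 overlap, from 0.323 to 0.781 RPKM in control replicate 1 and from 0.274 to 0.693 RPKM in miR-125b replicate 2. Such intervals cover counting error only. The gene did not pass the filter on low values, and without that filter its log2 fold change was -0.15 ± 0.074 (SE; limma adjusted p = 0.659). The 1 RPKM added before taking logs is more than the level itself, so it shrinks both this difference and its SE. Cyclin D1 mRNA made up between 0.233% and 0.313% of the summed D-type cyclin level.

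For neither kinase gene did the groups separate. Cdk4 (chromosome 10, 126500659 to 126504338, plus strand, 8 exons) stood at 217.9 and 180.9 RPKM in control against 226.3 and 214.3 RPKM in miR-125b libraries. Control replicate 2 was the low one, and the other 3 libraries were close together. For Cdk4 the log2 fold change was 0.15 ± 0.21 (SE, n = 2 libraries per group; limma adjusted p = 0.816), with an interval from 0.788-fold to 1.56-fold, and it was 0.015 without control replicate 2 and 0.28 without control replicate 1. Cdk6 (chromosome 5, 3344312 to 3522225, plus strand, 7 exons) stood at 42.7 and 40.1 RPKM in control against 40.0 and 51.3 RPKM in miR-125b libraries. Here miR-125b replicate 2 was the high one, and the other 3 lie within 3 RPKM of each other. The log2 fold change of Cdk6 was 0.13 ± 0.20 (SE; limma adjusted p = 0.838), with an interval from 0.779-fold to 1.53-fold, beside -0.047 when miR-125b replicate 2 was left out and 0.30 when its partner, replicate 1, was.

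Among the inhibitors, Cdkn1b, which encodes p27Kip1 (chromosome 6, 134870419 to 134875543, plus strand, 3 exons), varied within both groups. Its level was 5.85 and 10.1 RPKM in control against 8.24 and 11.1 RPKM in miR-125b libraries. The highest control library lies between the miR-125b libraries, and the lowest value of all is control replicate 1. For Cdkn1b the log2 fold change was 0.28 ± 0.28 (SE, n = 2 libraries per group; limma adjusted p = 0.748). It was 0.63 without control replicate 2 and -0.074 without control replicate 1, so its sign rested on control replicate 1. The 95% interval reached from 0.764-fold to 1.92-fold.

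Cdkn2c encodes p18Ink4c (chromosome 4, 109333481 to 109337977, minus strand, 2 exons). It stood at 15.0 and 23.2 RPKM in control against 18.9 and 19.2 RPKM in miR-125b libraries. The miR-125b libraries nearly coincide and lie between the controls. With all libraries the log2 fold change was 0.029 ± 0.24 (SE; limma adjusted p = 0.968), with an interval from 0.688-fold to 1.51-fold, beside -0.27 without control replicate 1 and 0.33 without control replicate 2.

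Cdkn2d, which encodes p19Ink4d, is listed at 2 places on chromosome 9 with the same accession and exon length, 21092908 to 21095653 on the minus strand and 123836860 to 123839607 on the plus strand. The first held 9 and 18 reads in control and 12 and 18 reads in miR-125b libraries, and the second held 0 in all 4. Reads that match both places may have been lost or assigned to 1 of them, so the level of this gene is uncertain. As listed, the first row gave 0.631 and 1.37 RPKM in control against 0.749 and 1.21 RPKM in miR-125b libraries. The groups span nearly the same range, and the log2 fold change was 0.00032 ± 0.28 (SE; limma adjusted p = 1.00). With 0.1 RPKM added before taking logs in place of 1, it was 0.025 ± 0.54 (SE).

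On the log2(RPKM + 1) scale the E-type cyclin genes had the highest standard errors of the 9 tested genes. This order depends on the added 1 RPKM, which narrows the spread of low genes. With 0.1 RPKM added instead, the standard error was highest for Cdkn2d (0.54, against 0.38 for Ccne2 and 0.31 for Ccne1). Ccne1, for cyclin E1 (chromosome 7, 38883003 to 38892509, minus strand, 12 exons), stood at 24.8 and 15.6 RPKM in control against 19.3 and 12.3 RPKM in miR-125b libraries. Each group has a high and a low library, and the groups overlap. The log2 fold change was -0.33 ± 0.30 (SE, n = 2 libraries per group; limma adjusted p = 0.720), with an interval from 0.487-fold to 1.30-fold. Without control replicate 1 it was -0.014, and without control replicate 2 it was -0.65.

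Ccne2, for cyclin E2 (chromosome 4, 11118856 to 11131926, plus strand, 12 exons in the longer of 2 rows), stood at 11.4 and 5.01 RPKM in control against 9.07 and 7.30 RPKM in miR-125b libraries. The controls enclose the miR-125b libraries. In reads these are 387 and 157 in control, with exact 95% Poisson intervals of 349.4 to 427.5 and 133.4 to 183.6, so the gap between the controls is wider than counting error. The log2 fold change was 0.083 ± 0.34 (SE; limma adjusted p = 0.939), with an interval from 0.600-fold to 1.87-fold, and it was -0.44 without control replicate 2 and 0.61 without control replicate 1. The transcript has 35.0% GC, the lowest of the 10 genes, and after the GC correction the difference was -0.11.

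**Figure D2:**
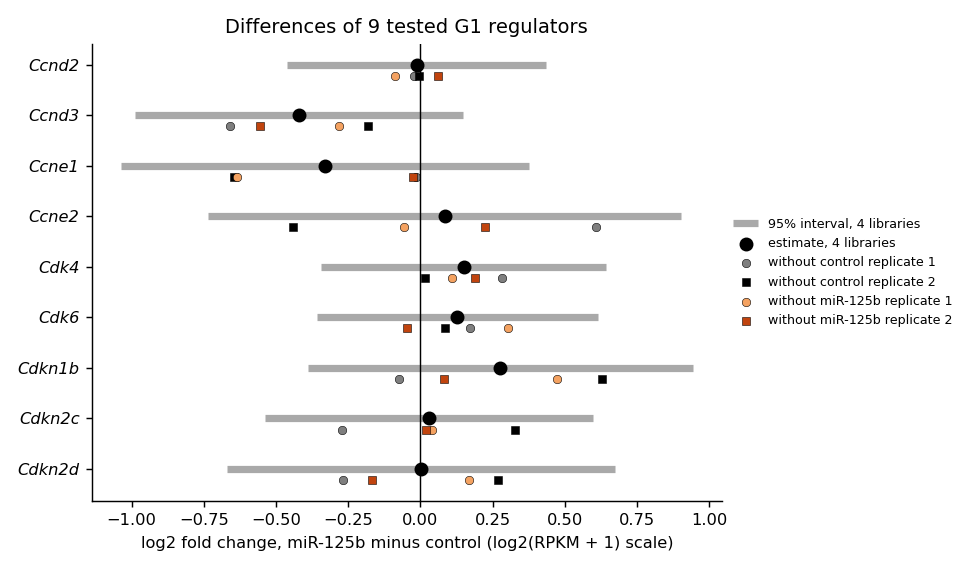
Log2 fold change of the 9 tested genes, miR-125b minus control, on the log2(RPKM + 1) scale. Black points are the estimates from 4 libraries, grey bars their 95% intervals, and the small points below them the estimates with 1 library left out. Every bar crosses 0, and for Ccnd2, Ccne2, Cdk6, Cdkn1b, Cdkn2c and Cdkn2d the small points lie on both sides of 0.

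Between the libraries of a group, the E-type cyclins and Cdkn1b differed in opposite directions. In control replicate 2, Ccne1 and Ccne2 were lower than in control replicate 1, by 0.63 and 1.05 on the log2(RPKM + 1) scale, while Cdkn1b was higher by 0.70 and Cdkn2c by 0.60. Of the miR-125b libraries, the one with less Ccne1 also had less Ccne2 (differences of -0.61 and -0.28) and more Cdkn1b (0.39), whereas Cdkn2c differed by 0.020. These are differences between single libraries of 1 group and have no replicate. In control the gap exceeded 0.5 on that scale for 5 of the 10 genes, beside 25.3% of all tested genes.

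Sums and ratios within a library describe the balance of the group and were not tested. The summed D-type cyclin level was 164.7 and 198.4 RPKM in control against 152.4 and 157.9 RPKM in miR-125b libraries, so both miR-125b libraries were lower. Cdk4 and Cdk6 together stood at 260.6 and 221.0 RPKM in control against 266.3 and 265.6 RPKM in miR-125b libraries, where both were higher. Control replicate 2 was the low library of this sum, and neither Cdk4 nor Cdk6 separated the groups alone. In the D-type sum, Ccnd2 overlapped between the groups. Among single tested genes the groups did not overlap in 42.8%, with miR-125b lower in 20.4% and higher in 22.3%. In all libraries Cdk4 supplied between 80.7% and 85.0% of that sum. The ratio of Ccnd2 to Ccnd3 was 1.01 and 0.735 in control and 1.33 and 0.989 in miR-125b libraries, which overlap. The summed level of D-type cyclins was 7.68 and 5.72 times that of the inhibitors Cdkn1b, Cdkn2c and Cdkn2d in control, and 5.46 and 5.01 times in miR-125b libraries.

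The remaining inhibitors complete both families. Cdkn1c, Cdkn2a and Cdkn2b, which encode p57Kip2, the p16Ink4a and p19Arf pair and p15Ink4b, had no read in any library. For Cdkn2a, 3 reads would have been between 0.256 and 0.311 RPKM, and for Cdkn2b between 0.171 and 0.208 RPKM, the limits that 0 reads allow. Cdkn1a, the p21Cip1 gene of the p53 response, was by far the most abundant inhibitor, at 219.6 and 329.8 RPKM in control against 165.5 and 165.7 RPKM in miR-125b libraries. It was the only one of these 4 to be tested and was lower at an unadjusted p under 0.05 (5.21% of all tested genes were), but not after adjustment. Its log2 fold change was -0.70 ± 0.25 (SE; limma adjusted p = 0.50), -0.41 without control replicate 2 and -0.99 without control replicate 1. The ratio of Cdkn1a to Cdkn1b, the other Cip/Kip inhibitor with reads, was 37.5 and 32.5 in control and 20.1 and 14.9 in miR-125b libraries. The groups do not overlap in this ratio, which was chosen after the values of both genes were seen and has no test.

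**Figure D3:**
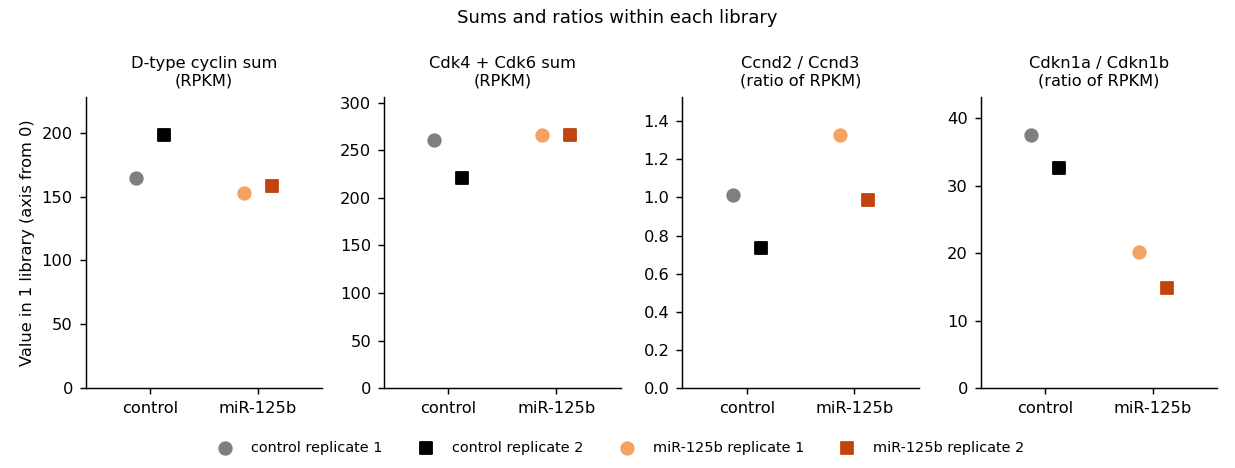
The summed level of the D-type cyclins and of Cdk4 with Cdk6 (RPKM), and the ratios of Ccnd2 to Ccnd3 and of Cdkn1a to Cdkn1b, with 1 point per library and each axis starting at 0. The Cdkn1a to Cdkn1b ratio is between 32.5 and 37.5 in control and between 14.9 and 20.1 in miR-125b libraries, whereas Ccnd2 to Ccnd3 overlaps between the groups.

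None of the other cyclin and kinase genes passed the test. This list of 9 holds Cdk2, the A- and B-type cyclins, Cdk1 and the CDK-activating kinase Ccnh, Cdk7 and Mnat1. Of the 8 tested, 0 had an unadjusted p under 0.05 (9.38% of all tested genes did) and 0 were called. For 7 of the 8 the log2 fold change was above 0, with a median of 0.25 beside 0.024 over all tested genes. Ccna2, the S-phase partner of CDK2, stood at 42.7 and 28.1 RPKM in control against 48.9 and 46.8 RPKM in miR-125b libraries (log2 fold change 0.45 ± 0.24 SE, limma adjusted p = 0.585; 0.16 without control replicate 2 and 0.75 without control replicate 1). Ccnb2, a mitotic cyclin gene, stood at 52.2 and 49.0 RPKM in control against 60.5 and 86.7 RPKM in miR-125b libraries (0.51 ± 0.23 SE, limma adjusted p = 0.543; 0.25 with miR-125b replicate 2 left out and 0.77 with replicate 1 of that group left out). For both genes the groups did not overlap, as in 22.3% of all tested genes that were higher in this way.

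Downstream of the G1 kinases, the 13 pocket protein, E2F and DP genes were all tested. At an unadjusted p under 0.05, 1 was lower (5.21% of all tested genes were), 0 were higher (4.17%) and 12 did not pass. The median log2 fold change was -0.13, beside 0.024 over all tested genes. The lower gene was E2f2, an activating E2F, at 7.88 and 8.26 RPKM in control against 3.09 and 3.43 RPKM in miR-125b libraries (adjusted p = 0.271 in limma's test). Unlike any of the 10 G1 genes, its 3′ UTR held 1 8mer and 1 further 7mer-m8, classes found in 15.6% of tested genes with a 3′ UTR. Neither class was held by Cdkn1a, Myc or E2f7, which were also lower in both miR-125b libraries. Nor was either held by Ccna2, Ccnb2, E2f6, Skp2, Skp1a, Pim2 or Mcm3, described here as well. Of the weaker classes, E2f2 held 3 7mer-A1 and 2 6mer sites, and E2f7 held 1 6mer. Among the genes that were higher in miR-125b libraries, Ccna2 held 1 7mer-A1, Pim2 held 1 7mer-A1 and 1 6mer, and Skp2 held 2 6mers. Whether the sites in E2f2 act on its level was not tested. E2f6, a repressive E2F, was at 16.7 and 10.4 RPKM in control against 19.2 and 19.9 RPKM in miR-125b libraries (limma adjusted p = 0.548), and its log2 fold change was 0.54, or 0.22 without control replicate 2 and 0.85 without control replicate 1. E2f7, another repressor, was at 18.0 and 16.5 RPKM in control against 14.3 and 14.1 RPKM in miR-125b libraries (limma adjusted p = 0.644).

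Among 14 replication genes that respond to E2F, Ccna2 included, 0 had an unadjusted p under 0.05 (9.38% of all tested genes did) and 0 were called. For 12 of the 14 the log2 fold change was above 0, and the median was 0.28, beside 0.024 over all tested genes. Mcm3, of the replicative helicase, was at 99.7 and 71.6 RPKM in control against 104.8 and 115.5 RPKM in miR-125b libraries, where the log2 fold change was 0.38 with all libraries, 0.14 without control replicate 2 and 0.61 without control replicate 1. Summed over the 14 genes the level was 851.2 and 598.3 RPKM in control against 812.6 and 875.0 RPKM in miR-125b libraries. Control replicate 2 was thus the low one, and control replicate 1 lay between the miR-125b libraries.

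Of 13 genes for turnover or phosphorylation of the G1 complexes, all tested, 1 was higher at an unadjusted p under 0.05 (4.17% of all tested genes were), 0 were lower (5.21%) and 12 did not pass, with 0 called. The median log2 fold change was 0.15, beside 0.024 over all tested genes. The higher gene was Skp2, the ubiquitin ligase subunit that targets p27Kip1, at 6.30 and 3.97 RPKM in control against 8.48 and 7.88 RPKM in miR-125b libraries. Its log2 fold change was 0.61 ± 0.23 (SE; limma adjusted p = 0.505), 0.33 without control replicate 2 and 0.89 without control replicate 1. Skp1a, another subunit of that ligase, was at 61.5 and 47.9 RPKM in control against 78.2 and 72.3 RPKM in miR-125b libraries (limma adjusted p = 0.541), and its log2 fold change was 0.46, or 0.29 without control replicate 2, 0.64 without control replicate 1 and 0.31 after the GC correction.

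Of 12 signalling and transcription inputs to D-type cyclins and p27Kip1, 11 were tested, 0 had an unadjusted p under 0.05 (9.38% of all tested genes did) and 0 were called. The log2 fold change was above 0 for 5 and below 0 for 6, with a median of -0.065 beside 0.024 over all tested genes. Pim2, a kinase gene induced by cytokine signalling, was at 8.68 and 6.42 RPKM in control against 11.8 and 8.77 RPKM in miR-125b libraries (limma adjusted p = 0.608), and its log2 fold change of 0.40 ran from 0.20 (miR-125b replicate 1 left out) to 0.59 (miR-125b replicate 2 left out), with 0.21 when control replicate 2 was left out. Myc, which activates Ccnd2 and Cdk4, was at 138.2 and 132.9 RPKM in control against 113.6 and 110.0 RPKM in miR-125b libraries. Both miR-125b libraries were lower for Myc, but the difference of -0.28 ± 0.19 (SE) did not pass limma's test (adjusted p = 0.651).

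**Figure D4:**
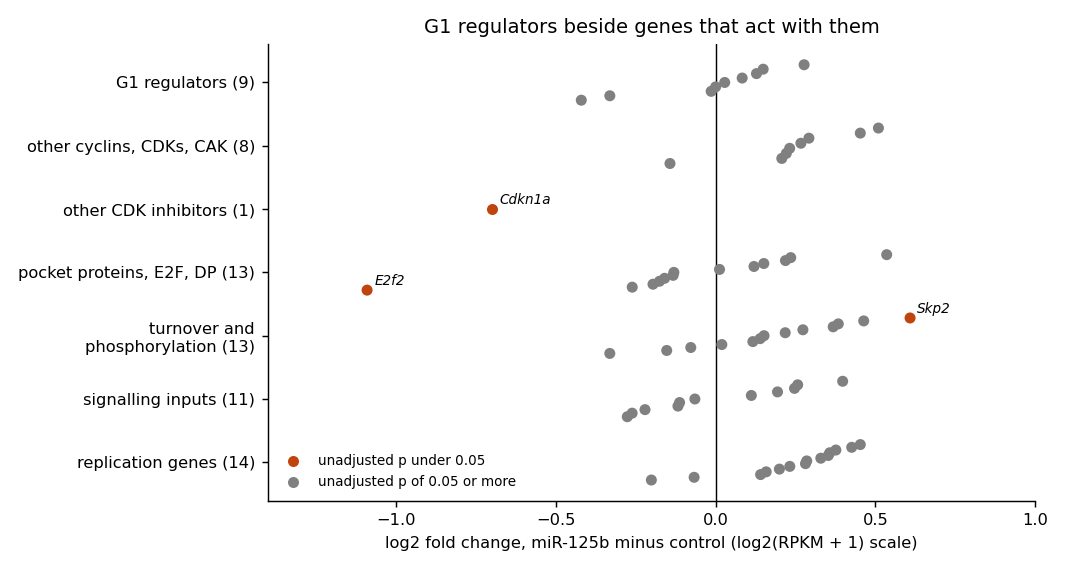
Log2 fold change, miR-125b minus control on the log2(RPKM + 1) scale, of the 9 tested G1 genes and of the tested genes of 6 lists of genes that act with them, with 1 point per gene and the number tested in brackets. Orange points have an unadjusted p under 0.05 in limma's test, and these are Cdkn1a, E2f2 and Skp2 only, none of which was called after adjustment.

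Across the 4 libraries, the genes whose pattern was most like that of Ccnd3 were Bahcc1, Ndst2 and Fam96b, out of 6071 other tested genes at a mean of 10 RPKM or more. Their root mean square differences from Ccnd3, in log2(RPKM + 1) centred on each gene's mean, were 0.012, 0.015 and 0.027. In all 3, as in Ccnd3, control replicate 2 was the highest library and miR-125b replicate 1 the lowest, and transcript GC content was 60.3%, 55.8% and 56.4%. With 4 libraries and this many genes, close matches of this kind are a description only.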

How the data were processed

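The authors deposited 1 table per library of RefSeq transcripts (mm9, per the submitters' processing notes) with exon length and RPKM. No aligner or counting program is named (not given in the sources used here). RPKM was multiplied by exon length and divided by the smallest such product above 0 in the library, taken as 1 read. This gave whole reads in 100.0% of rows (tolerance 0.001 reads). The longest row was kept per gene, and for the tied rows of Cdkn2d the first listed. Without strand in the labels, overlapping antisense genes cannot be told apart.

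limma 3.58.1 (R 4.3.3; trended prior, group as the only term, 2-sided) was run on log2(RPKM + 1), because the values are not counts, and Benjamini-Hochberg adjustment covered all 10310 tested genes. Residual and prior degrees of freedom were 2 and 4.63. The fit was tested on simulated data with less spread than these libraries, which checks the code and not the power of the test here. SD and n refer to libraries. Only the spread between these cultures enters the p-values, and through the prior much of it is that of other genes at similar levels.

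Named were all 10 genes and, of each pathway list, the 2 tested genes with the smallest p (3 for E2F factors). Genes and lists were chosen with earlier results of these data known. Alternatives were a pseudocount of 0.1, filters, scalings, the highest row, limma-voom, a replicate block, leaving out each library and, added after the data were seen, a lowess correction for GC content (10247 genes with a value).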

Additional observations from a re-analysis of the deposited data

How the results depend on the processing

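With 1 library left out the count of genes called over all genes ran from 0 to 91 (0 with all libraries), with 1 when control replicate 2 was left out, 91 for miR-125b replicate 1 and 25 for miR-125b replicate 2, and the count at an unadjusted p under 0.05 ran from 332 (without miR-125b replicate 2) to 3006 (without control replicate 1), beside 967. Of the 9 G1 genes 0 were called under any of the 13 alternatives. At an unadjusted p under 0.05 there were from 0 to 2 of them with 1 library left out: Ccnd3 and Ccne2 without control replicate 1 (log2 fold changes -0.66 and 0.61) and Cdkn1b without control replicate 2 (0.63). The groups share replicate numbers, but the labels do not say that a number marks a shared batch, and deviations of same-numbered libraries correlated at only 0.021. With the replicate block 12 genes were called and 0 of the G1 genes. A fit with 1 library left out has 1 library in that group. Its spread comes from the other group and the prior alone, so the counts from such fits are a description only.

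Ccnd3, Ccne1 and Cdk4 kept their sign under all 13 alternatives. Of these, the changes of filter and the replicate block refit the same values and could not change an estimate. The highest row could not change it for Ccne1 or Cdk4, whose only row was used. Leaving out 1 library could not turn the sign of Ccnd3, whose groups did not overlap. Ccne1 came close to 0 without control replicate 1 (-0.014), and Cdk4 without control replicate 2 (0.015). Signs turned for Ccnd2 with median scaling (0.0011), quantile normalization (0.026) and 1 library left out (-0.087 to 0.060), for Ccne2 with the GC correction (-0.11) and 1 library left out (-0.44 to 0.61), for Cdkn2c with the GC correction (-0.079) and 1 library left out (-0.27 to 0.33), for Cdkn2d with quantile normalization (-0.092) and 1 library left out (-0.27 to 0.27), and with 1 library left out for Cdk6 (-0.047 to 0.30) and Cdkn1b (-0.074 to 0.63). The cause was not tested. Cdkn2d was not among the genes at a mean of 5 RPKM or more. The genes named from the pathway lists kept their sign under all 13, of which the filters and the block could not change it. Nor could leaving out 1 library, because the groups did not overlap for any of these genes. The highest row left the estimate as it was for all but Cdkn1a, E2f6 and Skp2. Counting error limits Ccnd1 and Cdkn2d, which had 9 to 23 reads per library.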
